A study of Drosophila melanogaster with 3 samples.

Results

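The genes described are 9 core DNA replication genes of Drosophila melanogaster, taken as a named list from a dm6 gene annotation. They are Orc1 and Orc2 of the origin recognition complex, the 6 helicase genes Mcm2, Mcm3, dpa (the fly Mcm4), Mcm5, Mcm6 and Mcm7, and PCNA, the sliding clamp. They were 9 of 13945 protein-coding genes on the 6 chromosome arms with peaks. The measurement was ChIP-seq of the transcription factor Xbp1 in whole embryos collected at 0 to 24 h of age, with males and females pooled. All embryos carried a transgene that fuses GFP to the C terminus of Xbp1, and an anti-GFP antibody pulled down chromatin sonicated to between 200 and 800 bp. The 3 samples were biological replicates of this 1 group, so there was no second condition, and the control sample was not analysed here. Signal came from all cells of the embryo together, so the cell types in which a promoter was occupied are unknown.

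Before a cell divides, the origin recognition complex marks origins and loads the Mcm2 to Mcm7 ring, which later unwinds DNA as the core of the replicative helicase, while PCNA holds the polymerases on their template. In flies many genes of this kind are transcribed around S phase, under the cell cycle factor E2F and the promoter factor DREF. Xbp1, a transcription factor of the bZIP family, acts in the unfolded protein response and is best known for raising genes of the endoplasmic reticulum (ER). DNA replication genes are not among the classical targets of Xbp1, and the comparison asks where its peaks lay at them.

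Sequences are shown for 5 of the genes whose own promoter held a peak summit between genes, and for the peak next to Mcm3, because they let the summits be set against known promoter motifs. The bases are those of the Release 6 (dm6) plus strand from RefSeq, cut to the stretch outside annotated exons, and capitals mark the 21 bases centred on each summit. The Orc2 stretch is chr3R:13964541-13964741, and that of Mcm2 is chr3R:8264790-8264969. The Mcm5 stretch, chr3R:10788227-10788523, holds 2 summits. The Mcm6 stretch is chrX:6674195-6674386. The Mcm7 stretch, chr3L:8891435-8891555, comes from a weaker peak of the pooled list that was absent from the thresholded list. The last, chrX:5322697-5322859, lies upstream of Mcm3 at the start of the neighbouring gene Rnp4F.
Orc2: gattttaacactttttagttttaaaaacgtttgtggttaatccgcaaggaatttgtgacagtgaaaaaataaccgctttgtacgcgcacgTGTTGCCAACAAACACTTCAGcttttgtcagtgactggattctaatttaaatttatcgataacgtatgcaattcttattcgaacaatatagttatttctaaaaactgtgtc
Mcm2: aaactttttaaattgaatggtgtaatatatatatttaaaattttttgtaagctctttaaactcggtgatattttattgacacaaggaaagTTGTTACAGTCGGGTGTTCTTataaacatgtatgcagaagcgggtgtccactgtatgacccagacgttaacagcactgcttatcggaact
Mcm5: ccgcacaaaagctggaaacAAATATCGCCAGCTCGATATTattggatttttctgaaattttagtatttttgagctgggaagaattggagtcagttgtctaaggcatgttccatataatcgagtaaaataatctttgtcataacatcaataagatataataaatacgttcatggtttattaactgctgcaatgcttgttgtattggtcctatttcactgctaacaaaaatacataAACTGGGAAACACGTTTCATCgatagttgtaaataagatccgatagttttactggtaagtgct
Mcm6: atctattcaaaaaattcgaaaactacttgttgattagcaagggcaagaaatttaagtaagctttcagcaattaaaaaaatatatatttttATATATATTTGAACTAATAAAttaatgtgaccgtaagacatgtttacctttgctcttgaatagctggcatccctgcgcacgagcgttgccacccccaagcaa
Mcm7: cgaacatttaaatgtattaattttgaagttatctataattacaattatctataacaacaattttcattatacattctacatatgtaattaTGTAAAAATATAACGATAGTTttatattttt
Mcm3 upstream, at Rnp4F: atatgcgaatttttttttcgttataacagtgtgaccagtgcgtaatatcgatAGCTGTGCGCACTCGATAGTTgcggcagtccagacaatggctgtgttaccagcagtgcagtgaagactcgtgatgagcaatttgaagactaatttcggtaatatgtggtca

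None of these windows held the unfolded protein response element TGACGTGG, its core ACGTGG (which lies inside it) or the cyclic AMP element TGACGTCA, on either strand. Nor did any window at a thresholded summit of a member's own promoter, or at the pooled promoter summits of Mcm7 and PCNA. A weaker pooled peak at the Orc2 promoter was not scored. Such matches were rare at all peaks too. In the 201 bp windows centred on the 7291 thresholded summits, TGACGTGG was present in 0.741%, ACGTGG in 4.31% and TGACGTCA in 0.439%. The DREF element TATCGATA did occur at Orc2, where it starts 43 bp past the summit and can be read in the stretch above, and it was present at 4.79% of all thresholded summits. The stretch at Rnp4F holds that element 17 bp before its summit, and the Motif 1 core GGTCACAC, a common core promoter element of fly housekeeping genes, 34 bp before it. The core was found at 3.26% of all summits.

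Promoters were scored on both strands from 250 bp upstream to 50 bp downstream of each gene's outermost start. A second start, as at dpa and PCNA, was not scored. The E2F site was scored, here and below, as the loose pattern TTTNNCGC, where N is any base. In these windows a match to it was present in 6 of 9 members, against 19.7% of all 13945 promoters. Those members were Orc1, Orc2, Mcm2, Mcm3, Mcm5 and Mcm6. The DREF element was present in 2 of 9, Orc2 and PCNA, against 9.36% of all promoters, and the Motif 1 core in Mcm3 only, against 7.70%. TGACGTGG, ACGTGG and TGACGTCA were in no member promoter, and in 0.373%, 5.43% and 0.437% of all promoters. A match describes these letters only, and gives no evidence of which factor is present. Member promoters had a median GC content of 34.7%, between 25.7% and 41.7%, beside 38.0% for all promoters and 35.3% for the thresholded summit windows.

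Peaks were taken from 5 lists deposited by the authors. The thresholded list, kept by the irreproducible discovery rate (IDR), held 7291 peaks, all of them among the 7291 strongest of a list of 27099 called on the pooled replicates. The lists of replicates 1, 2 and 3 held 21686, 30000 and 23357 peaks, and 9930, 16056 and 8109 of these passed a q-value threshold of 0.05. The round length of the replicate 2 list may be a limit set in peak calling, which was not tested. Signal is the peak caller's own value on a scale that is not stated, so signals are compared only within a list, and ranks count from the strongest peak. The depth behind each value is unknown, because only peak lists were used.

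Of the 9 members, 8 had a thresholded peak with its summit in the gene or within 2 kb of it, all but Mcm7. The same held for 48.2% of all protein-coding genes, and for 45.8% of those whose span lay in the members' range of 1130 to 3444 bp. A thresholded promoter peak, with its summit within 500 bp of one of the gene's own start sites, was present at 6 of 9, namely Orc1, Orc2, Mcm2, dpa, Mcm5 and Mcm6. Among all protein-coding genes the share was 30.4%. For Mcm3 and PCNA the peak within 2 kb stood at the start of another gene. These counts describe the list, with no test, since the members were chosen with earlier results of these data known.

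**Figure D1:**
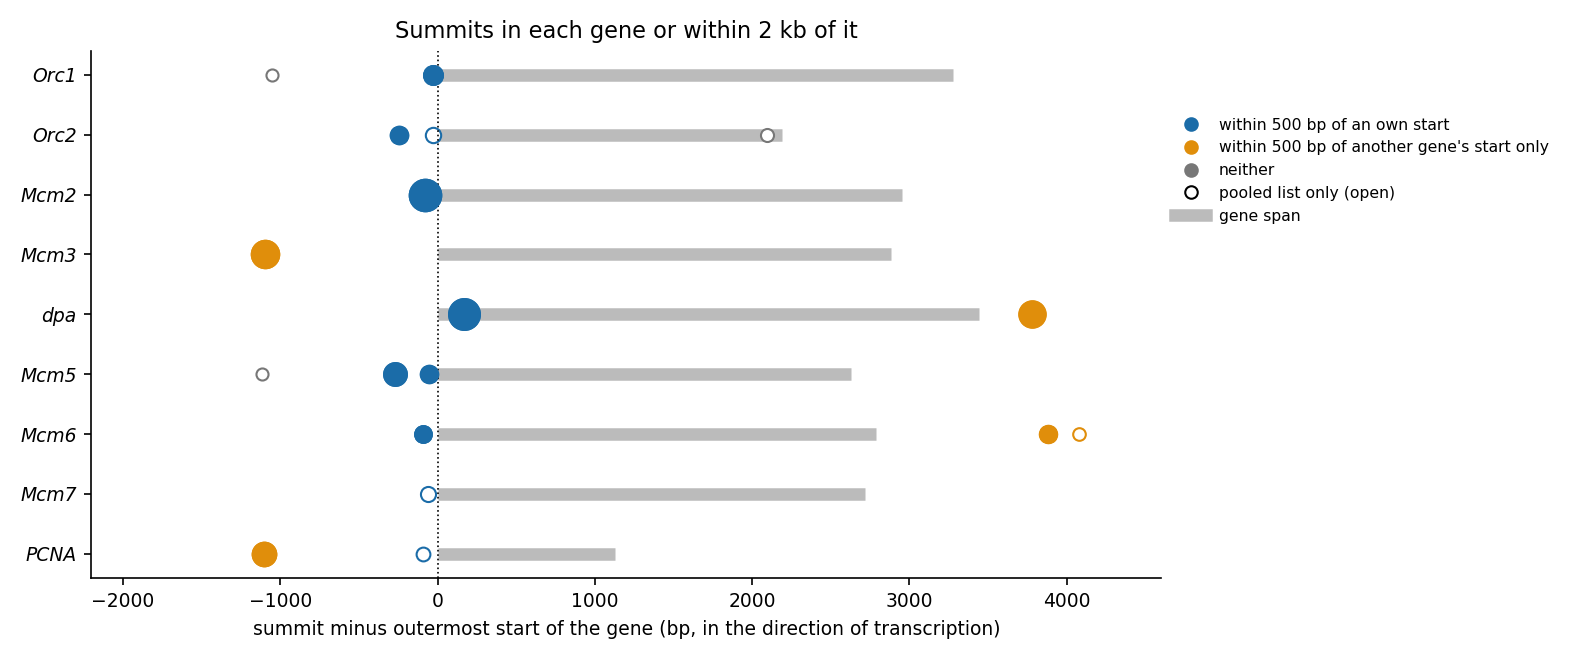
Summits of thresholded (filled) and pooled-only (open) peaks, in bp from the outermost start of each member (dotted line), with the gene's span in grey and circle area growing with signal. Thresholded summits lay within 500 bp of an own start (blue) at 6 members, while those of Mcm3 and PCNA lay upstream at another gene's start (orange, at -1096 and -1105 bp).

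Of the origin recognition genes, Orc1 encodes the largest subunit, an ATPase. Its gene (FBgn0286788, chr2R:7522437-7525716, minus strand) had 1 thresholded peak, with the summit at position 7525745 between genes, 29 bp upstream of the start. The thresholded signal was 250.8, rank 4858 of 7291. In replicates 1, 2 and 3 the signal was 90.1, 102.0 and 30.01, at ranks 5949, 4154 and 9784. The peak had the lowest q of the list in replicates 1 and 2 (7.88e-05 and 5.40e-05) but a q of 0.161 in replicate 3, so the third replicate alone did not call it. No other gene started within 500 bp of this summit. An E2F site began 32 bp from it in the direction of transcription. Such a site was present in the windows of 13.3% of all thresholded summits.

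Orc2 (FBgn0015270, chr3R:13964885-13967075, plus strand), a further core subunit, had a weaker promoter peak, 244 bp upstream of its start and 467 bp from that of the divergent gene Kots. Its thresholded signal was 200.7 (rank 6238). The replicates gave 76.8, 75.3 and 36.8, with q-values of 0.0015, 5.40e-05 and 0.0353, so all 3 called it. A second, closer peak 29 bp upstream of the Orc2 start had a pooled signal of 136.8 (q 0.00387, rank 9172 of 27099) and fell below the IDR threshold. Its replicate signals were 47.6, 51.1 and 40.6, with q-values of 0.124, 1.59e-04 and 0.0118. In replicate 3 the closer peak was thus the higher of these 2 Orc2 peaks.

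Among the helicase genes, Mcm2 (FBgn0014861, chr3R:8264970-8267924, plus strand) had the highest signal of the 9 members. Its single thresholded peak summited at position 8264890, between genes, 80 bp upstream of the Mcm2 start. The signal was 835.6 in the thresholded list (rank 838), and 377.1, 189.0 and 252.8 in replicates 1, 2 and 3 (ranks 821, 1620 and 553). In replicates 1 and 3 it was the highest of all member peaks, and in replicate 2 it fell below 3 others, and its summit moved by 7 bp between replicates. The promoter is shared: RPA1, the large subunit of the single-strand binding protein that coats unwound DNA, starts on the other strand 519 bp away, 439 bp from the summit. One peak therefore lies between 2 replication genes.

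dpa (FBgn0015929, chr2R:7496702-7500145, minus strand), which supplies the Mcm4 subunit, came next. Its promoter summit, at position 7499976, lay in the 5′ UTR of dpa, 99 bp from the nearer of its 2 start sites, with the start of didum, a myosin V gene, 171 bp away. The outermost starts of dpa and didum are 2 bp apart. The signal was 796.5 (rank 929), and 354.1, 263.8 and 188.3 in the replicates (ranks 911, 873 and 971). These ranks were close to one another, while the summit moved by 60 bp. E2F sites began 12 and 93 bp from the summit in the direction of dpa, outside the promoter window scored above. A further peak past the 3′ end of dpa, with a signal of 556.1 (rank 1699), summited 21 bp from the start of CG1620 and in its 5′ UTR. Its replicate signals of 234.7, 217.2 and 94.4 were each below those of the dpa promoter peak. E2F sites began 35 and 68 bp from the summit near CG1620 too, in the direction of dpa.

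Mcm5 (FBgn0017577, chr3R:10788524-10791150, plus strand) had 2 overlapping thresholded peaks in the space that it shares with Art1, an arginine methyltransferase gene on the other strand whose start is 298 bp from its own. The stronger, with a signal of 397.2 (rank 2777), lay 268 bp upstream of Mcm5 and only 30 bp from the start of Art1. Its replicate signals were 182.0, 121.4 and 84.2. The weaker, with a signal of 198.0 (rank 6334), lay 53 bp upstream of Mcm5, and its replicate signals were 89.4, 77.2 and 38.0. The stronger summit was thus the nearer to Art1 in the thresholded list, and the peak near Art1 was the higher in all 3 replicates.

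Mcm6 (FBgn0025815, chrX:6674387-6677176, plus strand) had the weakest promoter peak of the 6 genes with one. Its summit, 92 bp upstream of the start and 322 bp from that of the divergent gene CG3198, had a signal of 178.4 (rank 7041 of 7291). The replicates gave 75.0, 77.1 and 36.1, with q-values of 0.0016, 5.40e-05 and 0.0419, and summits spread over 79 bp. A second thresholded peak beyond the 3′ end of Mcm6, with a signal of 193.7 (rank 6487), stood 7 bp from the start of ND-ASHI, a subunit gene of mitochondrial complex I, and 157 bp from that of Fum1, a fumarase gene. These 2 peaks of Mcm6 were the members' closest above the IDR threshold, where the lowest signal kept was 172.2. The members' closest below it were the second Orc2 peak at 136.8 and the Mcm7 peak at 129.9. Their ranks in the pooled list were 9172 and 9642, well past the 7291 kept.

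Mcm7 (FBgn0020633, chr3L:8891596-8894310, plus strand) was the member with no thresholded peak within 2 kb. The pooled list had a peak 61 bp upstream of its start, with a signal of 129.9 (q 0.00617, rank 9642). Its replicate signals were 53.6, 53.9 and 30.01, with q-values of 0.0489, 5.40e-05 and 0.161. Replicates 1 and 2 thus called it at 0.05 and replicate 3 did not.

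Mcm3 (FBgn0284442, chrX:5323855-5326738, plus strand) was the reverse case, since no list held a peak within 500 bp of its start. Its one peak lay 1096 bp upstream, between genes, and 63 bp from the start of Rnp4F, which encodes an RNA-binding protein. That peak was strong, with a signal of 612.2 (rank 1472) and replicate signals of 254.9, 184.1 and 173.4 (ranks 1617, 1689 and 1124). Its summits agreed to within 5 bp.

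PCNA (FBgn0005655, chr2R:20261754-20262883, minus strand), which encodes the clamp, likewise had its thresholded peak at a neighbour. The summit lay 1105 bp upstream, in the 5′ UTR of the ribosomal protein gene RpS18, 9 bp from its start and 304 bp from that of plu (plutonium), a gene known for the control of DNA replication in the early embryo. The signal was 433.1 (rank 2467), and 171.2, 210.2 and 48.9 in the replicates (ranks 2828, 1334 and 5827). Replicate 2 placed it far higher than replicate 3 did. An ACGTGG core began 55 bp from this summit, the one case among the members' thresholded peaks. At the PCNA promoter itself, 94 bp upstream of the start and inside the 3′ UTR of plu, the pooled list had a signal of 95.1 with a q of 0.0989. The replicate values there were 42.0 (q 0.266) and 28.8 (q 0.0735) in replicates 1 and 2, with no peak in replicate 3, so no replicate called it at 0.05. A DREF element began 67 bp from that summit.

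**Figure D2:**
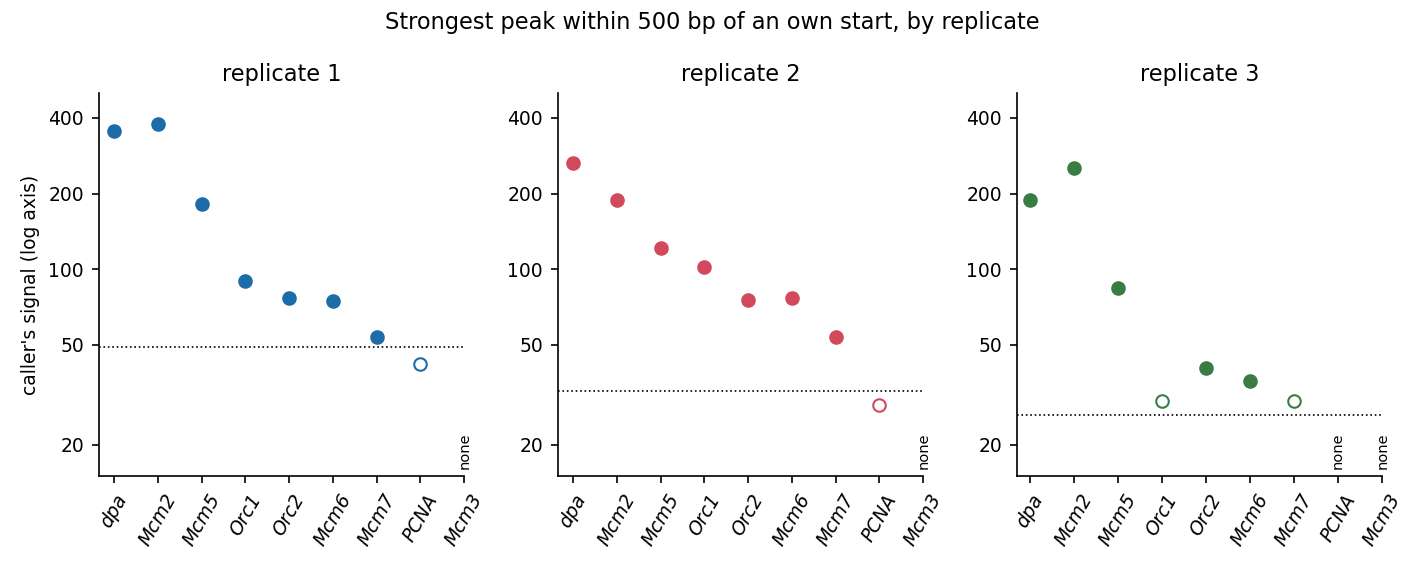
Signal of the strongest peak within 500 bp of an own start, on a log axis, for each member in each replicate list (filled, q of 0.05 or less; open, above 0.05; dotted line, median signal of all peaks in that list). Mcm2 and dpa were the highest in every replicate, between 188.3 and 377.1, Orc1 and Mcm7 were above 0.05 in replicate 3 only, and Mcm3 had no such peak.

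A promoter peak of q 0.05 or less was present at 7, 7 and 5 of 9 members in replicates 1, 2 and 3. The shares of all genes were 35%, 48.4% and 29.6%. The pooled list at the same q gave 7 of 9, against 39.8% of all genes. Replicate 3 lacked Orc1 and Mcm7, and Mcm3 and PCNA were absent from all of these counts. Within 2 kb, the counts were 9, 9 and 7 of 9 (8.33 ± 1.15, SD, n = 3), against 54.6%, 65.2% and 48.9% of all genes. Limited to as many of each replicate's strongest peaks as the thresholded list holds, they were 8, 8 and 6 (7.33 ± 1.15, SD, n = 3), against 47.7%, 49.3% and 46.6% of all genes.

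A peak shared with a divergent neighbour was common. For 5 of 9 members (55.6%, against 36.2% of all genes) another protein-coding gene on the opposite strand starts within 1000 bp upstream. The distances between starts were 711 bp for Orc2 and Kots, 519 bp for Mcm2 and RPA1, 2 bp for dpa and didum, 298 bp for Mcm5 and Art1, and 414 bp for Mcm6 and CG3198. All 5 had a thresholded promoter peak, as did 53.3% of all genes with such a partner. Of the 4 without one, Orc1 alone had a promoter peak, beside 17.4% of all genes without a partner. Which gene of a pair a peak belongs to cannot be told apart from these lists.

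The promoter peaks of the members differed widely in strength, from among the stronger of all promoter peaks to near the weakest. Their thresholded signal ran from 178.4 to 835.6 with a median of 324.0, beside a median of 403.3 over the 4242 genes with a thresholded promoter peak. Among those genes Mcm2 stood at percentile 81.3 and dpa at 79.4. Mcm5 stood at 49.4, Orc1 at 22.8, Orc2 at 9.05 and Mcm6 at 2.05. Within 2 kb the members' median was 415.2 and that of all 6717 genes with a peak was 451.4. For scale, 4 of 5 ER chaperone and calnexin genes, which serve protein folding in the ER, had promoter peaks with signals from 698.0 to 5825, so the strongest member peak lay in the lower part of that range.

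To set replicates side by side, each gene was given a percentile, the share of protein-coding genes whose strongest peak had a lower signal in the same list (ties counted as 0.5, genes with no peak at 0). By promoter peaks, dpa stood at 93.9 ± 0.375 and Mcm2 at 93.5 ± 3.05 (mean ± SD, n = 3 here and below). Their replicate ranges overlapped. Mcm5 followed at 83.7 ± 1.77, apart from both. Orc1 at 73.5 ± 5.26, Orc2 at 71.6 ± 0.870 and Mcm6 at 71.0 ± 0.560 formed a group in which neighbours in the order did not differ beyond their spread. Mcm7 stood at 65.3 ± 2.57, then PCNA at 46.7 ± 16.6 and Mcm3 at 25.5 ± 3.47, the level of genes with no promoter peak. The range of Mcm7 did not reach that of Mcm6 or PCNA.

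By any peak within 2 kb the places of Mcm3 and PCNA changed, whose strongest peak stood at another gene's start. Some other values also came from a peak beyond the 3′ end of the gene. These were Mcm6 in replicates 2 and 3 (82.9 and 36.5, near ND-ASHI) and Orc1 in replicate 3 (31.5, against 30.01 at its promoter). dpa stood at 88.6 ± 0.470, Mcm2 at 88.0 ± 5.80, Mcm3 at 83.1 ± 2.96, PCNA at 71.8 ± 12.8 and Mcm5 at 71.4 ± 2.48, and the ranges of neighbours in that order overlapped. Orc1 at 56.6 ± 7.86, Orc2 at 54.1 ± 0.901 and Mcm6 at 54.1 ± 3.09 came lower, and Mcm7 was last at 46.2 ± 0.842. PCNA had the widest spread, from 58.6 in replicate 3 to 84.2 in replicate 2. The members' median percentile was 72.8 in the thresholded list, and 72.7, 69.4 and 58.6 in replicates 1, 2 and 3 (50 over all genes in each replicate). Over all genes the thresholded median was 25.9, which is the tied value of every gene with no thresholded peak within 2 kb.

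**Figure D3:**
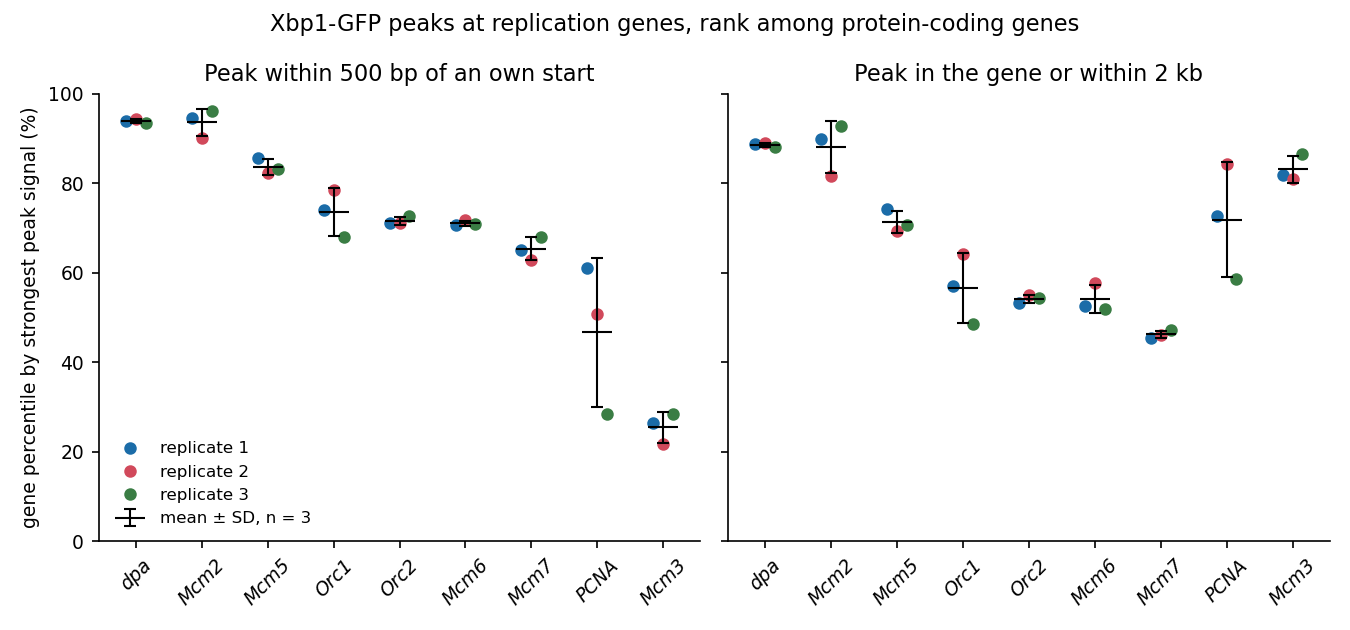
Gene percentile among 13945 protein-coding genes by the strongest peak within 500 bp of an own start (left) or within 2 kb of the gene (right), for replicates 1 to 3 (points) with mean ± SD (bars, n = 3). dpa and Mcm2 were highest on the left, near 93.9 and 93.5, and Mcm3 rose from 25.5 on the left to 83.1 on the right, where the peak at Rnp4F counts.

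The protein-coding genes most like Mcm2, not sharing its peak, were those with the smallest summed difference from it in percentile within 2 kb over the 3 replicates. They were RpS19a, mthl1 and SNRPG, which share a single peak of signal 818.2 and so count as 1 site. Their percentiles were 89.7, 82.7 and 91.5 in replicates 1, 2 and 3, beside 89.8, 81.6 and 92.8 for Mcm2, a summed difference of 2.51 percentile points.

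Among 46 other genes of DNA replication, 28 (60.9%) had a thresholded peak within 2 kb and 22 (47.8%) a thresholded promoter peak, beside the 48.2% and 30.4% of all genes given above. RPA1 is counted here by the peak it shares with Mcm2. Promoter signals had a median of 364.6, below the 403.3 of all genes with a promoter peak. Of 7 further genes for origin recognition and licensing, promoter peaks were found at dup (the fly Cdt1, which loads the helicase) and geminin, its inhibitor. Orc5 and Orc6 had a thresholded peak within 2 kb only, and Orc3, Orc4 and Cdc6 had no thresholded peak within 2 kb, so of the 6 origin recognition genes only the members Orc1 and Orc2 had a thresholded promoter peak. Of 10 genes for helicase activation, 6 had promoter peaks, among them all 4 GINS subunits (Sld5, Psf1, Psf2 and Psf3) and the kinase pair Cdc7 and chif. Mcm10, Cdc45, RecQ4 and mus101 had no thresholded peak within 2 kb.

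The counts by role that follow stand beside 30.4% of all genes with a thresholded promoter peak and 48.2% with one within 2 kb. Of 9 genes for polymerases and primase, 5 had thresholded promoter peaks, at PolA1, Prim1, PolD1, PolD2 and PolE1. PolD3 had a thresholded peak within 2 kb only. Of 6 for the clamp loader and fork protection, RfC38 and Claspin had a thresholded promoter peak and Gnf1 had one within 2 kb only. Of 5 for single-strand binding and Okazaki fragments, RPA1 had a thresholded promoter peak and DNAlig1 had one within 2 kb only. Of the 2 ribonucleotide reductase genes, which supply nucleotides, RnrS had a thresholded promoter peak and RnrL had no thresholded peak within 2 kb. Of 7 S phase regulators, 5 had a thresholded promoter peak (E2f1, E2f2, Dp, CycE and Cdk2), while Rbf had one within 2 kb only and dap had none within that distance.

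The 5 genes of this wider list with the highest signal within 2 kb were PolD1 (2941), chif (2586), PolD2 (1849), RnrS (1299) and Dp (1012). For PolD2, a small subunit gene of polymerase delta, RnrS and Dp, the partner of E2F, the promoter peak was the strongest. For PolD1, the catalytic subunit of polymerase delta, and chif, the activator of Cdc7, the promoter peak was weaker, at 193.5 and 609.5. All 5 had a stronger peak within 2 kb than Mcm2, at 835.6. In the wider promoters the E2F site was present in 20 of 46, the DREF element in 15 and the Motif 1 core in 7. The shares of all promoters were 19.7%, 9.36% and 7.70%. TGACGTGG and TGACGTCA were in none, against 0.373% and 0.437% of all promoters. ACGTGG was in 3 of 46, against 5.43%.

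**Figure D4:**
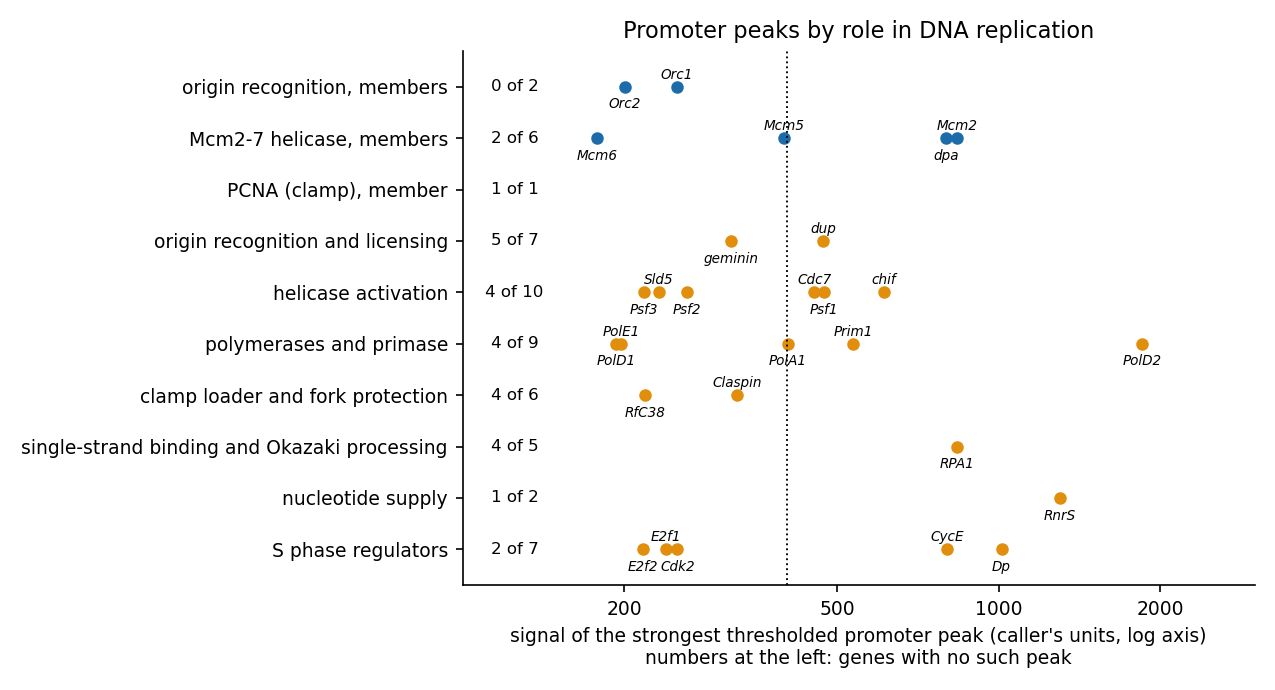
Signal of the strongest thresholded promoter peak (log axis, caller's units) for the members (blue) and 46 other replication genes (orange) by role, with the number of genes lacking such a peak at the left and the median of all genes with one dotted at 403.3. Mcm2 and dpa, at 835.6 and 796.5, lay right of the dotted line. Mcm5, at 397.2, lay just left of it, and Orc1, Orc2 and Mcm6 lay further left.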

How the data were processed

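ChIP-seq of Xbp1-GFP was analysed in 3 replicates of 1 group. The authors deposited peak lists in the dm6 build, with a signal per peak and the −log10 of its q-value, from each replicate and from all replicates pooled, and an IDR-thresholded list. No aligner or peak caller is named in the sources at hand, and lists in dm3 were not used. Each summit, printed counting from 1, was set against the Ensembl BDGP6.54 annotation (release 115). No peak ended beyond its arm, and 99.8% of annotated start codons read ATG in the Release 6 genome. Of the 46 wider genes, 2 were matched by another name.

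Genes were named by a rule. It took all 9 members, the 5 wider genes of highest thresholded signal within 2 kb, genes starting within 500 bp of a member's summit and the 3 genes most like the highest member. The wider genes named by role were chosen after their values were seen. Members, lists and motifs were chosen with earlier results of these data known, so no test was made. A difference is described by the spread over replicates, since 3 values against 3 cannot reach an exact permutation p of 0.05. Counting steps were tested on simulated data. Python 3.11.15, NumPy 2.4.6, pandas 2.3.3 and Matplotlib 3.10.9 were used.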

Additional observations from a re-analysis of the deposited data

How the results depend on the processing

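Of 55 recomputed values, 49 stayed within 1.5 times the main count, or within 1 SD over replicates for a percentile, and 6 moved. Some could not move. The members' median percentile is that of Mcm5, and lists that only drop or add weaker peaks leave it at 72.8. A fall from 6 members to 4 counted as staying. With the stronger 3645 of the thresholded peaks, 5 members (32.7% of all genes) and 17 wider genes had a peak within 2 kb, and 3 members (Mcm2, dpa and Mcm5, against 18.9% of all genes) and 12 wider genes had a promoter peak. The members' median percentile was 64.9 with peaks within 0.5 kb, and 72.3 by promoter peaks, an alternative chosen after seeing the data. With 3645 strongest peaks per replicate, the mean count of members was 4.67, against a mean of 32.4% of all genes (47.9% with the longer lists). The cause was not tested, beyond the shorter lists. When each replicate in turn was left out, by keeping thresholded peaks overlapped by the strongest peaks of both others, 6 to 8 members and 23 to 24 wider genes had a peak within 2 kb (40.9% to 43% of all genes), and 4 to 6 members and 16 to 17 wider genes a promoter peak (24.6% to 26.2% of all genes). Orc1 and Mcm6 were lost without replicate 1 or replicate 2, when replicate 3 was required. No paired analysis was possible because there was 1 group. Peaks carry no read counts. A missing promoter peak at Mcm3 or PCNA thus shows only that none was called at this depth, which is unknown. At Mcm7 a promoter peak was called in the pooled list (q 0.00617) and in replicates 1 and 2. Its absence from the thresholded list and from the calls of replicate 3 likewise holds only at this depth.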
